A study of Mus musculus with 6 samples.

Results

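Long intergenic noncoding RNA (lincRNA) genes lie outside protein-coding genes and make long RNAs that are not translated, and some of them guide chromatin proteins, host small RNAs or silence a neighbouring gene on the same chromosome. Most mammalian DNA methylation sits on cytosines of CpG dinucleotides, and it is abundant in gene bodies and intergenic sequence while CpG-rich gene starts are mostly free of it. Methylated DNA immunoprecipitation followed by sequencing (MeDIP-Seq) pulls down fragments that carry several methylated CpG, so peaks of reads are read as methylated sequence in which CpG is dense enough to be captured. No input sample was used, and peaks with few or no CpG were called too, so a single peak need not mark methylated CpG.

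MeDIP-Seq peaks at lincRNA genes were examined in 3 control samples and 3 TGF-β1-treated samples of mouse primary mesangial cells, the contractile support cells of the kidney glomerulus. Cells of both groups grew in 25.5 mM glucose with 20% foetal bovine serum between passages 3 and 6, and the treated cells received TGF-β1 at 10 ng/ml over 72 h. The study calls its replicates biological, while the labels give neither the mouse strain nor whether they came from separate cultures, so the p-values measure only the spread between these samples. Peak lists hold no expression values, and the mesangial identity of the cells was not checked here.

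A peak was counted as a lincRNA peak when its summit lay inside or within 2 kb of a lincRNA gene and more than 2 kb from any protein-coding gene on chromosomes 1 to 19 (GENCODE vM1, mm9). Peaks of the 6 samples that shared at least 1 bp were joined into regions, which gave 1958 lincRNA regions of 170444 regions in all. They came from 987, 1034 and 1161 peaks in control replicates 1, 2 and 3 and from 1176, 1110 and 1243 peaks in TGF-β1 replicates 1, 2 and 3. Control replicates 1, 2 and 3 were covered by 10319496, 9407103 and 11494356 reads and TGF-β1 replicates 1, 2 and 3 by 12748318, 12634300 and 13291419 reads. All treated samples were deeper than all control samples, so treatment and depth cannot be told apart where raw peak numbers are compared. Control replicate 1 stood apart in its pileups, with lower correlations to the other 5 samples (r of 0.683 to 0.704 over shared lincRNA regions) than any of these had among themselves (at least 0.757).

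The sequences below show what the assay captured at lincRNA genes. Each is 200 bp of the mm9 reference around the summit of a region, on the plus strand, with CpG in capitals. The first pair holds a highly enriched intronic region with few CpG and many near-identical copies in the genome, and a highly enriched intronic region whose sequence occurs once.
4932412D23Rik, chr16:42814923-42815122: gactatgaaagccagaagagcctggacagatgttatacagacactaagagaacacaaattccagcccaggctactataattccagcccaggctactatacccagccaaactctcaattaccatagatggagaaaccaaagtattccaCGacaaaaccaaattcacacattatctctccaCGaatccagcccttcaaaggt
Gm17245, chr8:108846701-108846900: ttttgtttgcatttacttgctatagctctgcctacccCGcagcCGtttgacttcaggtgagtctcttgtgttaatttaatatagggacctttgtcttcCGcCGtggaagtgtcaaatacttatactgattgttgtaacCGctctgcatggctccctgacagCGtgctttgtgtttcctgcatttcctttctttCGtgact

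The next pair lies at lincRNA gene starts, where the strongest regions called in all 6 samples were found 48 bp before the start of Gm17276 and 470 bp before the start of 4930448N21Rik.
Gm17276, chr17:32250226-32250425: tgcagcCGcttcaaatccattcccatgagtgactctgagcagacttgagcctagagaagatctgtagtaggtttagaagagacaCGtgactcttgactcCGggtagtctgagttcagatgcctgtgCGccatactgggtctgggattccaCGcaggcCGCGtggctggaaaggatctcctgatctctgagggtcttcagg
4930448N21Rik, chr8:48532086-48532285: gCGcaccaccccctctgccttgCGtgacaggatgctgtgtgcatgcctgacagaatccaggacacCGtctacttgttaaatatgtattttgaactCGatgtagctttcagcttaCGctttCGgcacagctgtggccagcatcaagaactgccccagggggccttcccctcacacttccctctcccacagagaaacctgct

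The next pair had the smallest p-value for a higher and the second smallest for a lower pileup after TGF-β1.
A330033J07Rik, chr13:48348662-48348861: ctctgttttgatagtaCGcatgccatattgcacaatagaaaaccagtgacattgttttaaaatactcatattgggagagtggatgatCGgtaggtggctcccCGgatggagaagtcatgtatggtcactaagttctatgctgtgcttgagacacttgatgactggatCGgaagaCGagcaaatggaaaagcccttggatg
4930444M15Rik, chr14:76913231-76913430: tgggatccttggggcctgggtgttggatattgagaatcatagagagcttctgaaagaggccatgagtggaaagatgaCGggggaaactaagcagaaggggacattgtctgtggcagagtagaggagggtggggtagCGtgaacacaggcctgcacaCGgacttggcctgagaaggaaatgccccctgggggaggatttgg

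The last pair was called in every sample of 1 group and in none of the other, in the TGF-β1-treated samples for Gm16615 and in the control samples for Gm16899.
Gm16615, chr8:96280867-96281066: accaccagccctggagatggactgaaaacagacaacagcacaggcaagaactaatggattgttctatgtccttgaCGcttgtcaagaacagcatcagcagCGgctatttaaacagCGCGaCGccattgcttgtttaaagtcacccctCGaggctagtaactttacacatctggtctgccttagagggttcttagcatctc
Gm16899, chr1:7381210-7381409: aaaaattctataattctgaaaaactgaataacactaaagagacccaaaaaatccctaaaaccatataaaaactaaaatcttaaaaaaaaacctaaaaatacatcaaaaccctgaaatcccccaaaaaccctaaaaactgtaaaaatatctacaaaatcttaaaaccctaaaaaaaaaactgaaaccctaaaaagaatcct

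The Gm16615 sequence has 6 CpG in the 200 bp, and the Gm16899 sequence has 0 CpG and a GC content of 25.5%. Over all lincRNA regions the median was 2.5 CpG per 100 bp around the summit, and 47 regions had no CpG in that window.

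The annotation holds 1232 lincRNA genes on chromosomes 1 to 19, of which 926 have sequence more than 2 kb from protein-coding genes. Of these, 536 had at least 1 region and 254 had a region called in all 6 samples, while 390 had none. Genes with a region were longer (median 16204.5 bp) than eligible genes without one (5833 bp). Regions were spread unevenly, with a single region at 215 genes and 785 regions at the 43 genes that had 10 or more. A length of 282 to 1621 bp was found for lincRNA regions, with a median of 383 bp. Chromosomes 5, 8 and 15 held the most regions, 210, 193 and 152 for 75, 64 and 44 lincRNA genes, and chromosome 16 held the fewest, 45 for 42 genes. Of the regions, 82 lay in the windows of more than 1 lincRNA gene, and MeDIP reads carry no strand that could assign them.

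The GENCODE class was set against RefSeq (GRCm38.p6, names and classes only), in which 715 of the 1232 genes were matched. RefSeq classes 661 of them as long noncoding RNA, and these held 1251 regions. It classes 25 as protein-coding, and 13 of those genes held 115 regions. Without these 25 genes, 1846 regions remained.

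The gene with the most regions was 1 of the 25, Ttc28 on chromosome 5, with 78 regions over 409.979 kb, 20 of them called in all 6 samples. Control samples had 40, 44 and 49 peaks there and treated samples 48, 50 and 49, so the groups overlapped at 49 peaks. By regions called in all 6 samples it was followed by D030068K23Rik on chromosome 8, with 15 such regions of 37. Its 27, 25 and 26 control peaks overlapped with the 26, 23 and 30 peaks after TGF-β1. On the same chromosome, AC152164.1 and Gm17279 are transcribed from opposite strands of nearly the same sequence and had 22 and 20 regions, of which 14 and 13 were called in all 6 samples. Pvt1 on chromosome 15, a noncoding neighbour of the Myc gene that has been studied in diabetic kidney disease, had 38 regions, 11 of them called in all 6 samples.

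To determine where peaks were found relative to lincRNA genes, peak density was computed in each sample. The lincRNA windows held 45.7 ± 3.89 peaks per Mb (SD, n = 6), against 29.3 ± 2.5 peaks per Mb in other sequence more than 2 kb from protein-coding genes. The ratio was 1.56 (log2 ratio 0.64 ± 0.0343, SD, n = 6) and was above 1 in 6 of 6 samples (exact two-sided sign-flip test over samples, p = 0.031, the smallest that 6 samples allow, adjusted p = 0.0391 over 5 within-sample comparisons). The lincRNA windows also hold more CpG, 0.906 per 100 bp against 0.717, and per CpG the ratio was 1.24 (log2 ratio 0.31 ± 0.0343, higher in 6 of 6 samples, exact p = 0.031). Sequence within 2 kb of protein-coding genes, genes included, held 53.1 ± 5.19 peaks per Mb, above the lincRNA windows in 6 of 6 samples (log2 ratio of lincRNA to this sequence -0.21 ± 0.0516, exact sign-flip p = 0.031).

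Within the lincRNA windows, 1575 regions (80.4%) had their summit in an intron, 180 in an exon, 137 in the 2 kb downstream and 66 in the 2 kb upstream. Exons make up 1.40 Mb and introns 21.1 Mb of this sequence. Exons held 78.2 ± 7.44 peaks per Mb and introns 42.1 ± 3.70 (SD, n = 6), a ratio of 1.86 that was above 1 in 6 of 6 samples (exact two-sided sign-flip test, p = 0.031, adjusted p = 0.0391). Exons had 1.45 CpG per 100 bp and introns 0.840. Per CpG, the exon density exceeded the intron density by a ratio of 1.07, in 5 of 6 samples, a difference that did not pass the test (log2 ratio 0.10 ± 0.0828, exact p = 0.0625). The flanks were between these values, with 59.9 ± 3.8 peaks per Mb upstream and 63.5 ± 5.86 downstream.

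**Figure D1:**
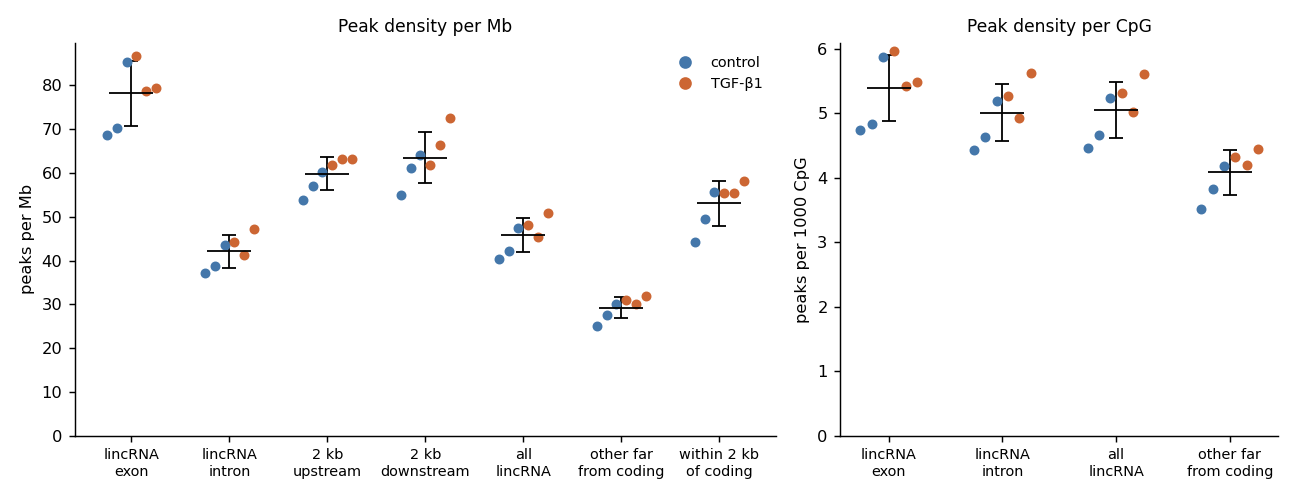
Peak density in lincRNA exons, introns and 2 kb flanks, in all lincRNA windows and in the comparison sequence, in peaks per Mb (left) and peaks per 1000 CpG (right). Points are the 6 samples, bars the mean and SD. Exons stood at 78.2 and introns at 42.1 peaks per Mb, whereas per 1000 CpG they stood at 5.39 and 5.01.

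The peaks at lincRNA genes had a slightly lower fold enrichment, but not a lower pileup. MACS2 gives each peak a fold enrichment, the pileup at the summit divided by the local background. The median over lincRNA peaks was 6.19 ± 0.121 (SD, n = 6) and over other peaks more than 2 kb from protein-coding genes 6.31 ± 0.174, a difference of -0.126 ± 0.103 (lower in 6 of 6 samples, exact two-sided sign-flip test, p = 0.031, adjusted p = 0.0391). In TGF-β1 replicate 2 the difference was only -0.0001, and the call was lost without the genes that RefSeq classes as protein-coding (-0.0924, exact p = 0.0625). It was also lost among peaks with a fold enrichment of at least 5 (-0.108, exact sign-flip p = 0.0625). The median pileup was 19, 19 and 22 reads in lincRNA peaks and 19, 18 and 21 reads in the others in control, and 21, 22 and 23 against 21, 21 and 23 reads after TGF-β1, so it was equal or higher by 1 read in each sample. The CpG content around the summits had a median of 2.92 ± 0.204 CpG per 100 bp in lincRNA peaks and 3 in the others, with the same value in 5 of 6 samples (exact p = 1).

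Starts of lincRNA genes carried peaks more often than starts of protein-coding genes. Of 336 lincRNA starts more than 2.5 kb from protein-coding genes, 6.80 ± 1.30% (SD, n = 6) had a summit within 500 bp, against 3.61 ± 0.613% of 21418 protein-coding starts. The difference of 3.19 ± 1.05 percentage points had the same direction in 6 of 6 samples (exact two-sided sign-flip test, p = 0.031, adjusted p = 0.0391). Within 1000 bp of the start it was 4.93 percentage points (exact p = 0.031). The groups of starts differ in CpG content, since 20.8% of the lincRNA starts and 45.1% of the protein-coding starts were CpG-rich (GC of at least 0.5 and an observed to expected CpG ratio of at least 0.6 over about 1 kb). Among CpG-poor starts, 8.21 ± 1.43% of 266 lincRNA starts and 5.89 ± 1.0% of 11762 protein-coding starts had a peak (difference 2.32 percentage points, higher in 6 of 6 samples, exact p = 0.031, adjusted p = 0.0625 over both classes). Among CpG-rich starts, peaks were rare in both kinds of genes, at 1.43 ± 1.28% of 70 lincRNA starts and 0.834 ± 0.151% of 9656 protein-coding starts (higher in 4 of 6 samples, exact p = 0.3125).

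**Figure D2:**
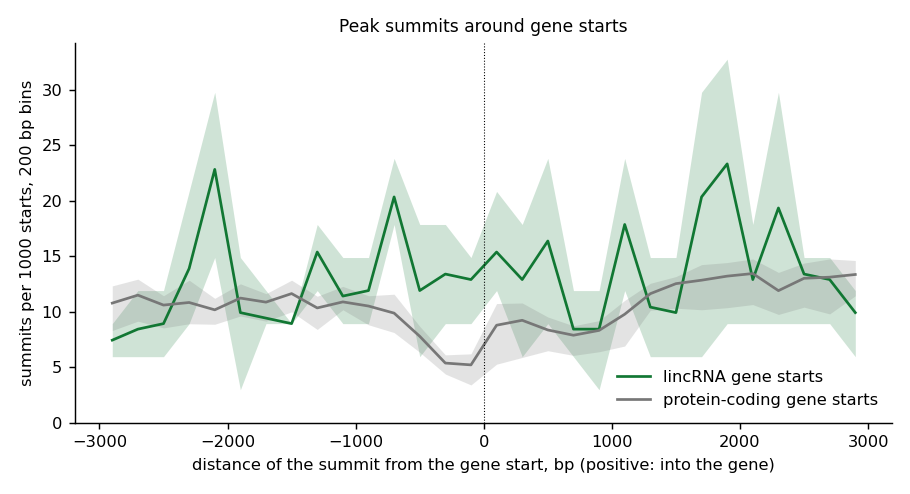
Peak summits per 1000 gene starts in 200 bp bins from 3000 bp before to 3000 bp after the start, for 336 lincRNA and 21418 protein-coding starts. Lines are the mean and bands the range of the 6 samples. The protein-coding curve dipped to 5.21 summits in the bin just before the start, where the lincRNA curve stood at 12.9, and the lincRNA bands are wide because few starts were available.

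Of the 1958 regions, 37 had their summit within 500 bp of a lincRNA gene start and 12 of these were called in all 6 samples. The strongest was at Gm17276 (chr17:32250038-32250544), 7439 bp from Notch3, a receptor of the Notch pathway. Control samples had fold enrichments of 7.97, 9.59 and 9.79 there and treated samples 10.1, 10.1 and 7.82 (mean 9.23 ± 1.05, SD, n = 6). The highest and the lowest of these values were both in the treated group. The region before the start of 4930448N21Rik (chr8:48531912-48532459) had 21, 20 and 23 reads at the summit in control and 31, 30 and 38 after TGF-β1. These pileups are not scaled to depth. After centring each sample on its median the difference was 0.40 ± 0.201 (log2, SE) and did not pass the test (limma, unadjusted p = 0.055, adjusted p = 0.999). Regions at the starts of Gm13657, Speer7-ps1 and Gm12655 had mean fold enrichments of 8.47, 8.19 and 7.95. At Gm12655 pileups were 30, 30 and 22 reads in control and 18, 19 and 30 after TGF-β1, so the groups overlapped, and the log2 difference of -0.54 ± 0.230 (SE) had an unadjusted limma p of 0.026 and an adjusted p of 0.999.

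The 3 most enriched regions had few CpG and much-repeated sequence. The region in an intron of 4932412D23Rik (chr16:42814788-42815233) had a fold enrichment of 21.6, 21.6 and 20.3 in control and 20.2, 23.2 and 19.6 after TGF-β1. The groups overlapped fully. It was followed by intronic regions of 6530401F13Rik (chr12:82652027-82652430, mean fold enrichment 19.8 ± 0.898, SD, n = 6) and 2310069G16Rik (chr15:44622620-44623043, 18.03 ± 0.646). These 3 regions had 2, 3 and 2 CpG in 200 bp, and the median 25-base word of their sequence occurred 4746, 4384 and 10262 times on chromosomes 1 to 19. The next, at Gm17317 (chr4:146775786-146776286, 13.5 ± 1.71), had 8 CpG and a median of 146 copies. Gm17245 (chr8:108846545-108847033, 13.3 ± 0.912) had 7 CpG and a single copy. The study's methods state that only uniquely mapped reads were kept. That filter could not be checked from the peak lists, so whether reads at the repeated regions came from these positions or from their copies is not known, and the part of repeated sequence in their fold enrichments was not tested.

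Across all lincRNA regions, 1531 (78.2%) had a median word count of 1 and 263 (13.4%) a median above 10. Of the 50 most enriched regions called in all 6 samples, 38.0% were above 10 copies, against 14.6% of the other 453. Their CpG content was not lower, with a median of 3.5 CpG per 100 bp in the 50 and 3 in the other 453. Among the 47 regions without CpG, the share was 34.0%.

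Reproducibility between samples was similar to that of other sequence. Of the lincRNA regions, 503 (25.7%) were called in all 6 samples and 529 (27.0%) in a single sample, against 25.9% and 27.5% of the 69629 other regions more than 2 kb from protein-coding genes. Regions called in more samples were richer in CpG and longer, where a joined region spans all of its peaks. The median length rose from 295 bp in regions of 1 sample to 483 bp in those of 6 samples, and the median CpG content from 2 to 3 per 100 bp. Over the 503 shared regions, log2 pileups of pairs of samples correlated with r between 0.683 and 0.814. The 5 pairs with control replicate 1 were the lowest, and the r values are given as a description because both axes share the same regions.

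**Figure D3:**
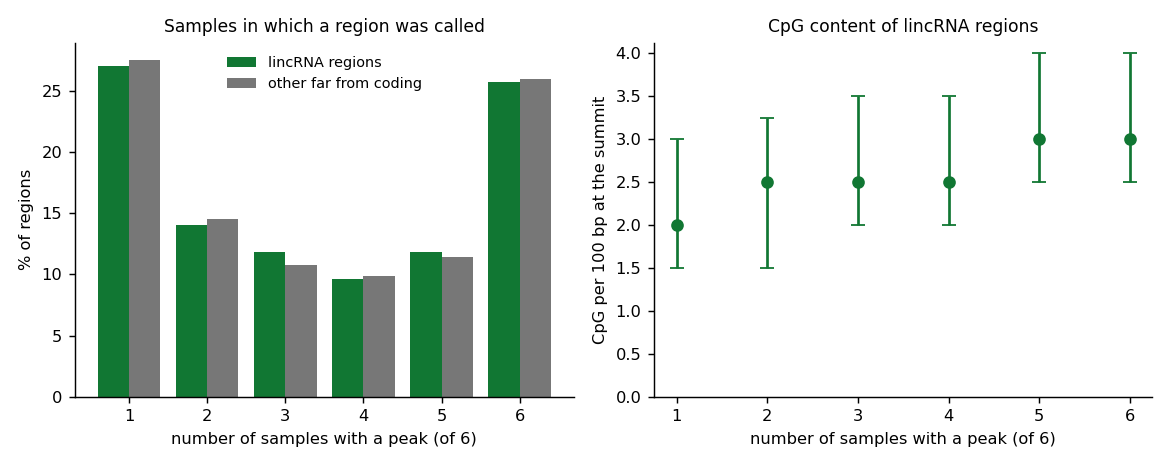
Share of regions called in 1 to 6 samples, for lincRNA regions and other regions more than 2 kb from protein-coding genes (left), and CpG per 100 bp around the summit of lincRNA regions (right, median with the first and last quartile). Both kinds of region were most often called in a single sample or in all 6, and CpG content was lowest, at 2 per 100 bp, in regions of a single sample.

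To ask whether MeDIP-Seq peaks at lincRNA genes as a group differed after TGF-β1, single values per sample were compared. The treated samples had 1176 ± 66.5 lincRNA peaks (SD, n = 3) and the control samples 1061 ± 90.0, a difference of 116 that did not pass the test (exact two-sided permutation test, p = 0.2, adjusted p = 0.267 over 4 comparisons), where 3 samples against 3 cannot go below 0.1. Scaled to depth the direction turned, with 91.2 ± 2.97 lincRNA peaks per 1000000 reads after TGF-β1 and 102 ± 7.21 in control (SD, n = 3, exact p = 0.1). The share of lincRNA peaks among all peaks on chromosomes 1 to 19 was 1.17 ± 0.0371% after TGF-β1 and 1.20 ± 0.0349% in control (SD, n = 3, exact permutation p = 0.6). A peak was found at 425 ± 4.51 lincRNA genes after TGF-β1 and at 403 ± 20.5 in control (SD, n = 3, exact permutation p = 0.2), and per 1000000 reads at 33.0 and 38.9 genes (exact p = 0.1). Dividing by reads assumes that counts of peaks and genes grow in proportion to depth, which was not tested. Since every treated sample was deeper than every control sample, neither direction separates treatment from depth. Over the 503 shared regions, the median pileup per 1000000 reads was 2.17 ± 0.102 after TGF-β1 and 2.31 ± 0.116 in control (SD, n = 3, exact permutation p = 0.2).

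**Figure D4:**
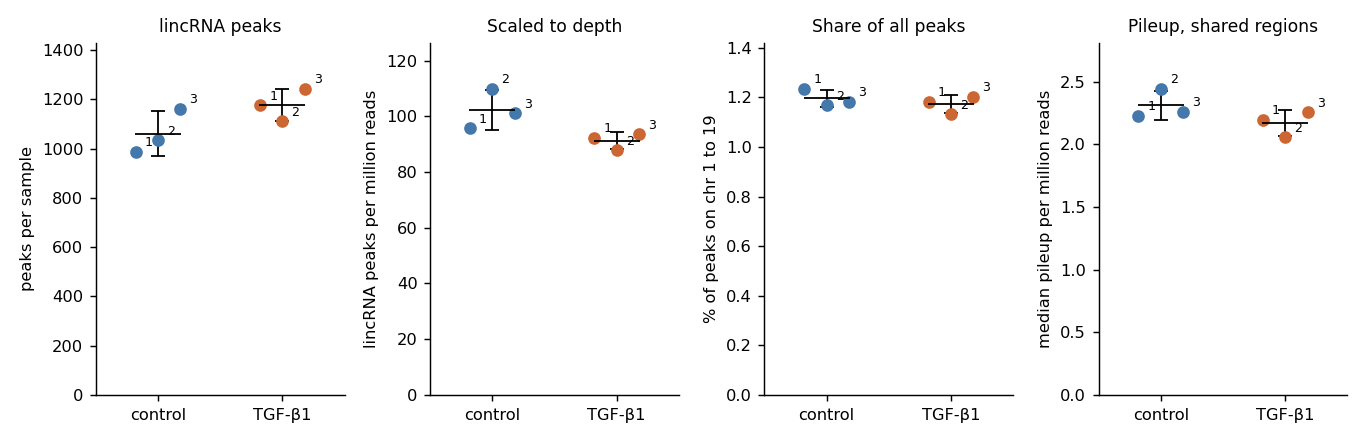
Number of lincRNA peaks, lincRNA peaks per 1000000 reads, their share of all peaks on chromosomes 1 to 19 and the median pileup per 1000000 reads over the 503 shared regions. Points are samples with their replicate number, bars the mean and SD of 3 samples. The treated samples were higher on average in the first panel (1176 against 1061 peaks) and lower in the second (91.2 against 102).

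Single regions were then tested with limma on log2 of the highest pileup, fitted over all 41744 regions of the series called in all 6 samples. The study's thresholds were an absolute log2 fold change above 2 together with an adjusted p below 0.01. At the stated thresholds, 0 of 503 lincRNA regions were called by limma, and 0% of all regions. The paper reports differentially methylated genes from a test on read counts over merged peaks. Most methylation fold changes that it lists for genes with changed expression lie below its stated cutoff. The absence of limma calls is therefore not a like-for-like comparison with the paper's calls. Only regions called in all 6 samples could be tested, which limits how low a group can lie. The mean pileup of either group reached 40 reads at 79 of the 503 regions, so most had little room for a difference this large. The 0 calls therefore do not show that no lincRNA region changed by this much. At an unadjusted p below 0.05, 6 lincRNA regions (1.19%) were higher after TGF-β1, against 1.96% of all regions, and 11 (2.19%) were lower, against 2.22% of all regions. The lowest adjusted p was 0.999. Log2 differences ran from -0.66 to 0.72 with a median of -0.027 (all regions -0.0047), and 9 lincRNA regions exceeded 0.5 in size, 1.79% against 1.73% of all regions. With pileups divided by reads, 2 were higher and 32 lower at an unadjusted p below 0.05, together 6.76% of lincRNA regions against 6.23% of all regions. Under this scaling the whole series leaned lower too. Log2 differences were positive at 29.4% of lincRNA regions and 32.0% of all regions, with medians of -0.118 and -0.0957. The balance turned among the 1154 regions of at least 3 samples (28 higher and 22 lower). It also turned without control replicate 1 (17 and 14) and without control replicate 2 (15 and 10). Over all regions, positive log2 differences rose from 49.2% without division by reads to 52.9%, 51.3% and 52.5% in these 3 settings. At lincRNA regions they rose from 44.1% to 51.3%, 47.5% and 47.3%, so most were still lower when control replicate 1 or control replicate 2 was left out. Without control replicate 2, 4.53% of lincRNA regions had an unadjusted p below 0.05, against 4.44% of all regions. Without TGF-β1 replicate 1 the balance was even (7 and 7), at 2.67% of lincRNA regions, below the share of all regions. In bulk DNA, fewer methylated cells and fewer methylated CpG in a fragment cannot be told apart. The other 1455 lincRNA regions lacked a peak in at least 1 sample and were not tested.

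The largest log2 difference was in an intron of A330033J07Rik (chr13:48348541-48348955), 8034 bp from Id4, an inhibitor of basic helix-loop-helix transcription factors. Its pileup was 15, 12 and 17 reads in control and 31, 28 and 25 reads after TGF-β1. Every treated sample was above every control sample, but the difference of 0.72 ± 0.216 (log2, SE) did not pass the adjusted test (limma, adjusted p = 0.999). Intronic regions of 2610206C17Rik (0.63 ± 0.222) and Gm13483 (0.49 ± 0.216) came next in order of p among regions higher after TGF-β1, with separate groups as well, and the first of them had a median of 7036 copies in the genome. The regions named here and in the next paragraph were chosen for the smallest p-values, which favours separate groups. Their separation is therefore no further support for a difference.

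Among regions with lower values, 3010027C24Rik on chromosome 18 had 23, 23 and 29 reads in control and 20, 17 and 18 after TGF-β1 (log2 difference -0.66 ± 0.210, SE). The region downstream of 4930444M15Rik (chr14:76913170-76913831) lies 5762 bp from Tsc22d1, a gene first described as induced by TGF-β1. It had 34, 31 and 35 reads in control and 27, 26 and 23 after TGF-β1 (-0.62 ± 0.198, SE), so every control sample was above every treated sample. In an intron of Gm9530, 23297 bp from Ier5, pileups were 31, 34 and 35 reads in control and 30, 23 and 30 after TGF-β1 (-0.50 ± 0.195, SE). None of these 3 passed the adjusted test (limma, adjusted p = 0.999 for each).

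Presence of a peak gave few group-exclusive regions. A peak in all 3 TGF-β1-treated and no control samples was found at 17 lincRNA regions (0.868%), against 0.948% of all regions. The opposite pattern was found at 8 regions (0.409%), against 0.233% of all regions. Ignoring any 1 sample raised these counts to between 25 and 44 and between 13 and 24, since fewer samples must then hold or lack the peak, and the counts over all regions rose as well, from 1616 to between 3026 and 4345 and from 397 to between 818 and 1869. Gm16615 had 22, 24 and 22 reads at an intronic region (chr8:96280776-96281098), 52899 bp from Gnao1, in the treated samples. A pair of intronic regions of Gm16956 (chr12:100803503-100803821 and chr12:100847229-100847591) had 24, 20 and 22 reads and 15, 24 and 22 reads in the treated samples. In the control samples only, Gm16899 (chr1:7381102-7381551) had 17, 16 and 23 reads, Ttc28 (chr5:111346061-111346467) 16, 17 and 20 reads, and Gm16743 (chr3:57425669-57426140) 13, 20 and 19 reads. Anywhere in the genome, peaks were called from 8 reads upward in control and from 9, 9 and 10 reads upward in TGF-β1 replicates 1, 2 and 3, and a sample without a peak may hold reads below the threshold of the peak caller.

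**Figure D5:**
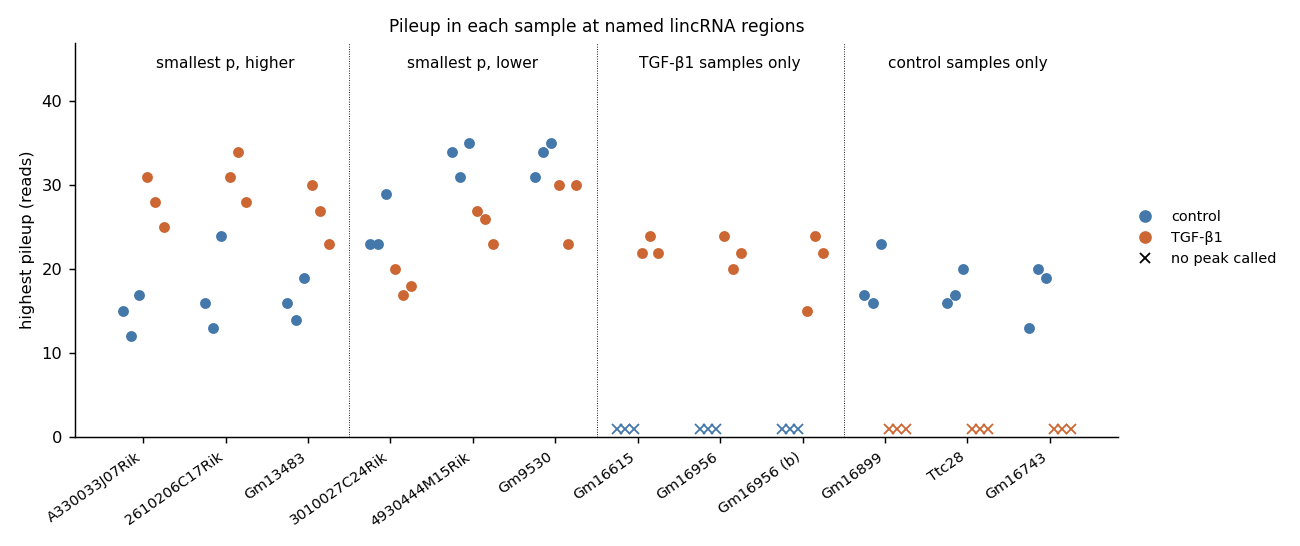
Highest pileup in reads, not scaled to depth, in each sample at the lincRNA regions with the smallest limma p-values (3 higher and 3 lower after TGF-β1) and at the strongest group-exclusive regions. Crosses mark samples with no called peak. In the first 6 regions the groups do not overlap, and their pileups lie between 12 and 35 reads. These 6 were chosen for the smallest p-values, which favours separate groups.

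Studied lincRNA genes were taken from 5 lists of 86 names, of which 20 are lincRNA genes of this annotation on chromosomes 1 to 19. Of the 20, 12 (60.0%) had a region and 7 (35%) a region called in all 6 samples, against 57.9% and 27.4% of all eligible lincRNA genes. By list, a region was found at 4 of 6 genes studied in kidney and fibrosis, 5 of 10 hosts of small RNAs, 4 of 5 imprinted genes, 4 of 4 genes that are antisense to a developmental regulator or neighbour one and 1 of 3 genes of nuclear architecture or stress. Some genes are on more than 1 list. No region was found at Gas5, Tug1, Snhg1, Snhg5, Snhg7, Snhg12, Nespas or 1700020I14Rik, whose sequence clear of protein-coding genes ran from 1.75 kb at Gas5 to 15.2 kb at 1700020I14Rik.

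Pvt1 had 20, 22 and 21 peaks in control and 18, 20 and 24 after TGF-β1, so the treated values enclosed those of control. Its region before the gene start (chr15:61867843-61868936, 911 bp upstream) had 35, 26 and 36 reads in control and 38, 32 and 35 after TGF-β1, a log2 difference of -0.10 ± 0.190 (SE). The 11 shared regions of Pvt1 had limma adjusted p-values of at least 0.999. One of the 11, at chr15:62114325-62114797, had an unadjusted p of 0.022, with 27, 19 and 30 reads in control and 18, 20 and 23 after TGF-β1. Over all regions tested, 4.18% had an unadjusted limma p below 0.05, so this region was not read as a difference.

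Among imprinted genes, Meg3, Rian and Mirg are maternally expressed in the same domain of chromosome 12. Meg3 had 6 regions, of which the only one called in all 6 samples lay in an exon (chr12:110798989-110799462) with 18, 25 and 24 reads in control and 25, 20 and 31 after TGF-β1 (log2 difference -0.05 ± 0.217, SE). A further Meg3 region, 567 bp into the gene, was called in 5 samples with 16 to 25 reads. Rian had 5 regions and Mirg 2, none of them called in all 6 samples. Airn, a paternally expressed transcript that overlaps Igf2r and silences it, had 4 regions, and its strongest (chr17:12978031-12978722) held 33, 29 and 41 reads in control and 41, 33 and 40 after TGF-β1. Its fold enrichment of 12.3 ± 1.32 (SD, n = 6) was the highest of the studied genes' regions called in all 6 samples.

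Of the genes antisense to or beside developmental regulators, Sox2ot, in whose introns the Sox2 gene lies, had 41 regions over 578.182 kb, 6 of them called in all 6 samples. It had 19, 24 and 16 peaks in control and 18, 22 and 23 after TGF-β1. Its strongest region (chr3:34229895-34230447) had 28, 30 and 40 reads in control and 45, 35 and 38 after TGF-β1, with a mean fold enrichment of 10.45 ± 0.869 (SD, n = 6). A weaker region (chr3:34499104-34499580) had an unadjusted limma p of 0.016 and an adjusted p of 0.999, with 17, 14 and 21 reads in control and 11, 14 and 17 after TGF-β1. It was not read as a difference either, since 4.18% of all regions tested had an unadjusted limma p below 0.05. Rmst, a noncoding RNA of neuronal differentiation, had 5 regions and Emx2os, which runs antisense to Emx2, had 4, with 2 called in all 6 samples for each gene. Six3os1 had a single region, called in control replicate 1 alone with 11 reads. The microRNA host Dleu2 had 3 regions, of which chr14:62246573-62247018 held 29, 35 and 33 reads in control and 30, 40 and 34 after TGF-β1. Miat, studied in vascular disease, had 3 regions and the snoRNA host Snhg4 had 1, and none of these was called in all 6 samples. Over the studied genes, the number of peaks per gene in control and treated samples overlapped wherever any was called in more than 1 sample.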

How the data were processed

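MeDIP-Seq peaks were called by the authors in each sample separately with MACS2 2.1.0.20150731 (q cutoff 0.01, no input sample, mm9) after mapping with BWA, and per the study's methods only uniquely mapped, non-duplicate reads were kept, which the peak lists cannot show. The deposited pileup is a signal in reads, not scaled to depth, the deposited fold enrichment is a ratio to the local background, and p- and q-values were deposited as -log10.

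Regions were joined at 1 bp overlap (checked against bedtools 2.31.1) and annotated on NCBIM37 (mm9) with GENCODE vM1. Densities used all non-N sequence, whether or not reads can map there. Per-sample values were compared by exact permutation or sign-flip tests, with Benjamini-Hochberg adjustment. limma 3.58.1 in R 4.3.3 (lmFit, eBayes with trend, each sample centred on its median) was fitted over 41744 regions and tested on simulated data. It replaced the study's test on read counts, since the peak lists hold no reads of uncalled regions. Copies are counts of 25-base words on both strands of chromosomes 1 to 19, in Python 3.11.15.

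Regions were named by rule: the 5 with the highest mean fold enrichment, the same at gene starts, the 5 genes with most shared regions, the 3 with the smallest limma p and the 3 group-exclusive with the highest pileup in each direction, and the studied genes. Members and lists were chosen with earlier results of these data known. Alternatives were -log10 q or fold enrichment of at least 5, windows of 0 and 5 kb, 1000 bp around starts, scaling by reads, fold enrichment in place of pileup, regions of at least 3 samples, joining at 200 bp, a replicate block and leaving out each sample. Densities per CpG or against sequence near coding genes, and leaving out genes that RefSeq classes as protein-coding, were added after seeing the data. Precision is limited by the small counts behind a pileup, whose mean over 6 samples was 13.3 to 104.5 reads at shared lincRNA regions.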

Additional observations from a re-analysis of the deposited data

How the results depend on the processing

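Directions turned with scaling to depth and with the comparison sequence. Per 1000000 reads, the treated minus control difference was -11.0 lincRNA peaks and -5.94 lincRNA genes with a peak, and with the deposited pileup the shared-region difference was 4 reads. Against sequence within 2 kb of protein-coding genes, the log2 density ratio was -0.213. The lower fold enrichment of lincRNA peaks did not pass the test among peaks with a fold enrichment of at least 5 (-0.108, exact p = 0.0625) or without genes that RefSeq classes as protein-coding (-0.0924), and the exon excess did not pass it per CpG (0.103). The number of lincRNA regions at an unadjusted limma p below 0.05 was 17 (3.38%, against 4.18% of all regions), and 34 with division by reads (6.76% against 6.23%), 27 with fold enrichment in place of pileup (5.37% against 4.41%) and 50 of 1154 among regions of at least 3 samples (4.33% against 4.05%). None passed the study's thresholds under any alternative run.

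Leaving out 1 sample gave differences of 78.8 to 166 lincRNA peaks, -0.0386 to -0.00269 percentage points of share, 11.8 to 32.3 genes and -0.185 to -0.0769 in pileup per 1000000 reads. Log2 density ratios ran from 0.636 to 0.654 for lincRNA windows and 0.878 to 0.922 for exons, the fold enrichment difference from -0.152 to -0.0924, the CpG difference from -0.1 to 0, and the start difference from 2.854 to 3.399 percentage points. Without control replicate 1, the sample that stood apart, the differences were 78.8 peaks, -0.00348 percentage points of share, 11.8 genes and -0.181 in pileup per 1000000 reads (exact permutation p of 0.1 or more in each), the log2 density ratios 0.636 and 0.895, the fold enrichment difference -0.113 and the start difference 3.19 percentage points. With 5 samples the sign-flip test cannot go below 0.0625, so none of these passed. Regions at an unadjusted limma p below 0.05 numbered 14 to 39 (39 without control replicate 3, 7.26% against 5.55% of all regions, 31 without control replicate 1, 5.22% against 6.15%, and 29 without TGF-β1 replicate 3, 5.69% against 3.98%), the group-exclusive regions 25 to 44 and 13 to 24, and calls at the study's thresholds 0.

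Samples of the same replicate number did not deviate together (r = -0.0464, 0.0432 and -0.130 over 41744 regions). With the number as a replicate block, 13 lincRNA regions (2.58%, against 3.67% of all regions) had an unadjusted limma p below 0.05 and none was called at the study's thresholds. The paired differences were 116 peaks, -0.0233 percentage points of share, 22 genes and -0.141 in pileup per 1000000 reads, where the exact sign-flip test of 3 pairs cannot go below p = 0.25.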
